A study of Mus musculus with 16 samples.

Results

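The complement genes examined here were 8 in number, namely Cfd, Cfb, Cfp, C3, C4b, Cd55, Cd59a and Serping1. They were picked by symbol, and by Ensembl identifier in the libraries of the Yap1/Taz experiment, from 39337 gene entries over all tables. Each of them had a row in all 3 tables. The values are FPKM, that is, fragments relative to gene length and sequencing depth, from 16 RNA-seq libraries of endothelial cells (ECs) sorted from mouse long bone on a C57BL/6 background. Wild-type mice carrying the Cdh5-mT/nG reporter gave 3 libraries of metaphyseal ECs (mpECs), from the region next to the growth plate, and 3 of marrow ECs (bmECs) from the diaphysis. Mice with floxed Yap1 and Wwtr1 alleles (Yap1flx/flx, Wwtr1flx/flx) at postnatal day 21 gave 3 control libraries without Cdh5CreERT2 and 3 with it, labelled ECKO. Wwtr1 is the gene of Taz. Lats2flx/flx mice gave 2 control libraries without Cdh5CreERT2 and 2 with it, labelled cKO. Both arms of each mutant experiment thus shared the floxed alleles and differed in the Cre, which is driven by the endothelial Cdh5 promoter and, according to the methods, was induced by tamoxifen after birth. The methods give the age of all mice as 3 weeks.

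Complement is a cascade of plasma proteases that marks surfaces with C3 and C4 fragments and can end in a pore, the membrane attack complex. In the alternative pathway, factor D (Cfd, also called adipsin) cleaves factor B (Cfb) bound to C3b, and properdin (Cfp) holds the resulting convertase together, whereas C4 serves the classical and lectin pathways. Host cells, the endothelium among them, limit the cascade with membrane proteins. CD55 speeds the decay of convertases, CD59 blocks assembly of the pore, and the C1 inhibitor Serping1 acts in plasma on C1r, C1s and the lectin pathway proteases. Adipocytes are a known source of Cfd, and neutrophils and monocytes of properdin.

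The gene models on GRCm38 (GENCODE M21) placed C3, C4b and Cfb on chromosome 17, Cd59a and Serping1 on chromosome 2, Cd55 on chromosome 1, Cfd on chromosome 10 and Cfp on the X chromosome. The Cfb exons share 79.5% of their bases with Gm20547, a gene model on the same strand, so reads of the pair can be confused. The related copies C4a, Cd55b and Cd59b can likewise take up or give reads of C4b, Cd55 and Cd59a where their sequences match. RefSeq promoters of build GRCm38.p6 were at hand for 5 of the 8 genes. Cfd and Cd55 were higher in bmECs and lower in Lats2 cKO libraries, and Cd59a moved against Cd55 in the Lats2 libraries. For Cfd, Cd55 and Cd59a, the 250 bases upstream of the annotated start are printed 5′ to 3′. They lie at chr10:79890603-79890852 (plus strand), chr1:130462745-130462994 (minus strand) and chr2:104095551-104095800 (plus strand), and capitals mark motif matches.
Cfd: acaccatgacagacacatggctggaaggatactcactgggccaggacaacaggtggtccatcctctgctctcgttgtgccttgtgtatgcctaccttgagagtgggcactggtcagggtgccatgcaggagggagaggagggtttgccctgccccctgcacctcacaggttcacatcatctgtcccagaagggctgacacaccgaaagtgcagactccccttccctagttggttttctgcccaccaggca
Cd55: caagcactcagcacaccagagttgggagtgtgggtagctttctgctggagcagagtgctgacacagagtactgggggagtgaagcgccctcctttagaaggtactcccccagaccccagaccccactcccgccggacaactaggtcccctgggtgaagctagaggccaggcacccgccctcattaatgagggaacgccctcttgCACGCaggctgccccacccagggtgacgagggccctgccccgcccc
Cd59a: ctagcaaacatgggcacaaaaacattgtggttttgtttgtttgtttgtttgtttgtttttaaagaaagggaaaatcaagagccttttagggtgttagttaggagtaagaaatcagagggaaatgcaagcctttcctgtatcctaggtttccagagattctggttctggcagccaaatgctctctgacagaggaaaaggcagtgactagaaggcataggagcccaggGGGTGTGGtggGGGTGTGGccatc
The 6 motifs searched on both strands were ACGTG and GCGTG (core of the hypoxia response element), CATTCC (TEAD), CCACACCC (KLF), TATAAA and TTCNNNGAA (STAT). In the Cd55 window GCGTG lay 46 bases upstream of the start, on the strand opposite to the gene, and 28.2% of 32851 promoter windows of this length held that motif. In the Cd59a window CCACACCC began 24 and 13 bases upstream on the opposite strand, a motif held by 3.20% of windows. The Cfd and C3 windows held none of the 6 motifs, and the Cfp window held 1 GCGTG, 233 bases upstream. A match is a run of letters and no evidence of binding.

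Reads on genes, recovered from the FPKM values, numbered 11556956 to 15436669 per library for mpECs and bmECs, 4889936 to 7162972 for the Yap1/Taz experiment and 4876410 to 7338358 for the Lats2 experiment. The targeted genes did not mirror every label. Wwtr1 was at 10.01, 9.88 and 10.3 FPKM in the Yap1/Taz controls and at 15.3, 19.6 and 19.5 FPKM in the libraries labelled ECKO (log2 fold change 0.78, limma adjusted p = 0.0272), and Yap1 overlapped between groups, at 0.995 to 1.62 against 0.989 to 1.43 FPKM. Lats2 was at 23.4 and 24.0 FPKM in Lats2 controls and at 19.2 and 19.2 FPKM in cKO libraries (log2 fold change -0.29, limma adjusted p = 0.125). Gene-level values also count exons that a deletion can leave in place, so they do not settle whether deletion took place. The Wwtr1 call in the libraries labelled ECKO held in 8 of 14 alternative fits. Wwtr1 was also higher in Lats2 cKO libraries, with a mean of 87.9 against 56.3 FPKM (limma adjusted p = 0.0257), a call held in 9 of 12. Why Wwtr1 was higher in the libraries labelled ECKO was not tested. In freshly isolated mutant bone ECs, the paper reports reduced Yap1 and Wwtr1 transcripts by qPCR, and reduced Lats2 transcripts. The endothelial markers Cdh5 and Pecam1 were at 101 FPKM or more and 57.1 FPKM or more in all 16 libraries. Hemoglobin transcripts and the neutrophil transcript S100a8 were present in all of them as well. Over the mpEC and bmEC libraries, 10 endothelial genes summed to 1189 to 1527 FPKM. There 10 neutrophil genes summed to 9534 to 28009 FPKM and 8 erythroid genes to 28301 to 60489 FPKM. In the Yap1/Taz libraries these sums were 649 to 867, 1686 to 3908 and 4458 to 6688 FPKM. In the Lats2 libraries they were 2175 to 2419, 710 to 2915 and 276 to 3770 FPKM.

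The first comparison set marrow ECs against metaphyseal ECs, to see how the vascular beds of bone differ. Factors D and B of the alternative pathway and the regulators Cd55, Serping1 and Cd59a were higher in bmECs, whereas C3 and properdin were not separated. Of the 7 complement genes tested, 5 were higher in bmECs at a limma adjusted p under 0.05 and 0 were lower, where 23.5% of all 11422 tested genes were called in either direction and 13.0% were higher. The median log2 fold change was 1.38 over these 7 genes and -0.000677 over all genes tested. The complement genes, like all gene lists here, were chosen with earlier results of these data known. C4b, at most 0.130 FPKM (7 reads), did not reach the minimum mean of 1 FPKM and was not tested. Libraries pool cells, so fewer cells of a type and less RNA per cell cannot be told apart. No label ties libraries to single animals, so p-values measure the spread between libraries.

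Cfd showed the widest separation. It was at 67.7, 134 and 39.3 FPKM in bmEC replicates 1 to 3 and at 1.23, 3.91 and 0.893 FPKM in mpEC replicates 1 to 3, from 427 to 1165 reads against 8 to 36. The lowest bmEC library lay far above the highest mpEC library, although bmEC libraries varied among themselves more than for any other complement gene. The mean was 39.9 times higher in bmECs (80.2 ± 48.4 against 2.01 ± 1.65 FPKM, SD, n = 3), and the log2 fold change on the log2(FPKM + 1) scale was 4.71 ± 0.48 (SE, limma adjusted p = 0.000386). Its substrate Cfb was at 4.90, 6.44 and 6.35 FPKM in bmECs and at 0.773, 1.24 and 0.765 FPKM in mpECs. These groups did not overlap either (log2 fold change 1.84 ± 0.15, SE, limma adjusted p = 0.000154). The shared exons of Gm20547 apply to this value.

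Properdin and C3 behaved otherwise. Cfp was at 33.9, 28.6 and 23.1 FPKM in bmECs and at 37.0, 19.9 and 21.0 FPKM in mpECs. The highest and the lowest library were both mpECs, and the difference of 0.17 had a 95% interval from -0.38 to 0.72 on the log2 scale (limma adjusted p = 0.647). C3, the central component on which all pathways converge, was at 3.95, 3.27 and 5.60 FPKM in bmECs and at 8.67, 4.44 and 4.02 FPKM in mpECs. The ranges overlapped, and the log2 difference of -0.31 had an interval from -0.93 to 0.31 (limma adjusted p = 0.447). The mpEC replicate 1 library was the highest for both Cfp and C3 and also had the highest summed FPKM of 10 neutrophil markers, 28009 against 9534 to 18135 in the other 5 libraries. The part of such cells in these values was not tested.

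Among the regulators, Cd55 was the most even. It was at 79.4, 77.5 and 79.1 FPKM in bmECs and at 26.2, 33.5 and 29.6 FPKM in mpECs, with 1397 or more reads in each library. No library of either group came near the other, and the log2 fold change was 1.38 ± 0.10 (SE, limma adjusted p = 7.88e-05). Serping1 was at 9.09, 17.6 and 14.5 FPKM in bmECs and at 5.40, 4.01 and 3.06 FPKM in mpECs. The groups were apart by a smaller margin, and the log2 fold change was 1.49 ± 0.25 (SE, limma adjusted p = 0.00379).

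Cd59a, at 50.7, 43.3 and 41.1 FPKM in bmECs and at 36.0, 34.4 and 30.5 FPKM in mpECs, was abundant in both. The groups did not overlap, but the shift of 0.41 ± 0.11 (SE) on the log2 scale was the smallest of the 5 that passed (limma adjusted p = 0.0271). Its call was lost without either mpEC replicate 2 or 3 or bmEC replicate 1 or 2 (adjusted p = 0.0584, 0.0986, 0.0871 and 0.0606), without the filter on low values (0.0529) and with voom on recovered reads (0.179). The other 4 calls held in every alternative in which the gene was tested.

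**Figure D1:**
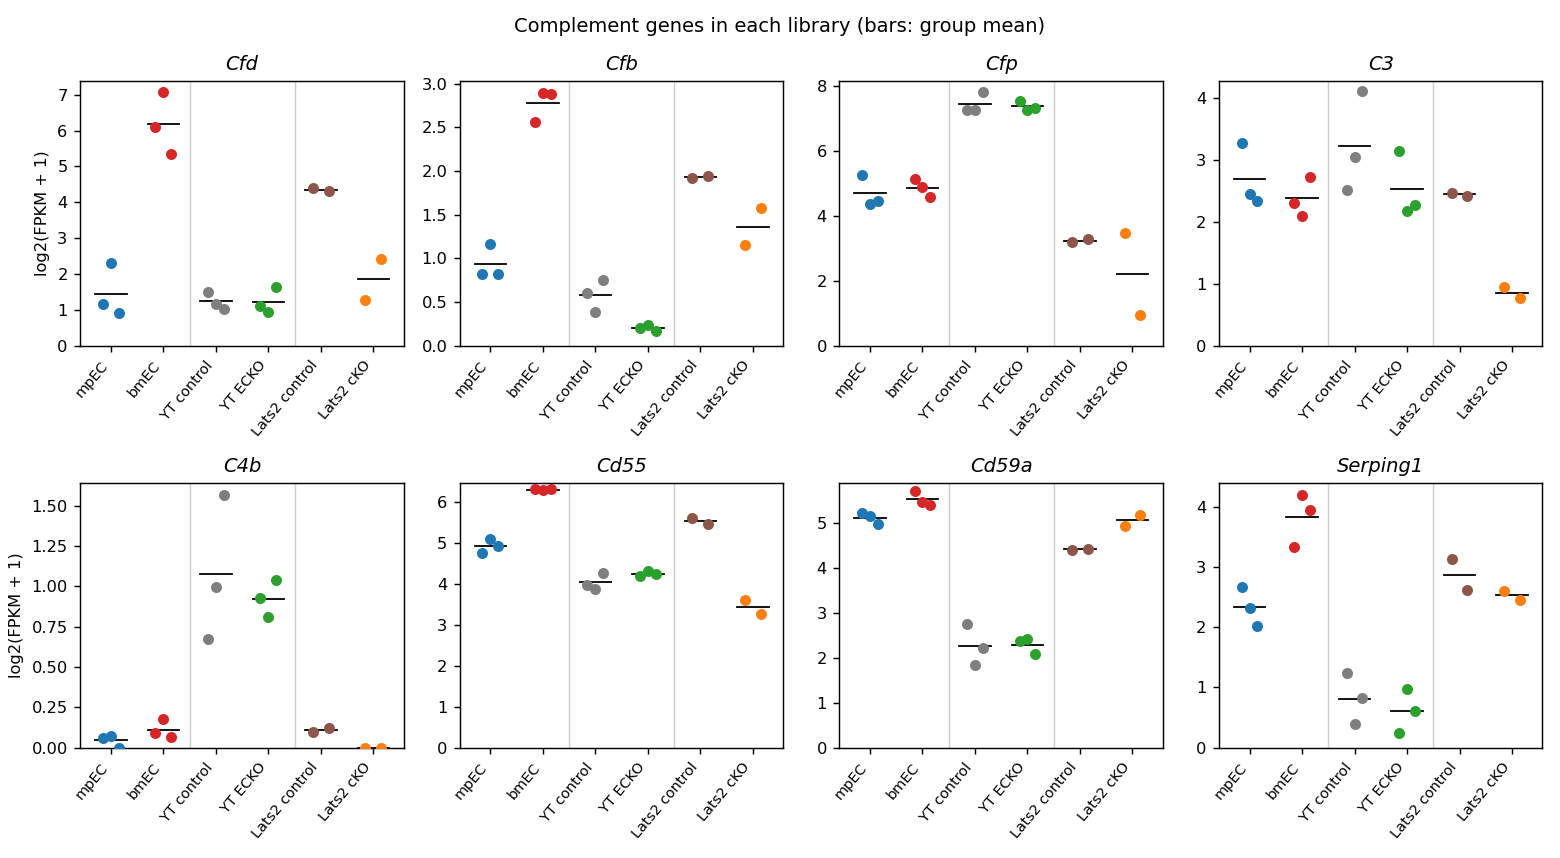
Levels of the 8 complement genes in each of 16 libraries, as log2(FPKM + 1) with 1 point per library and a bar at the group mean (n = 3 per group, n = 2 for Lats2). The vertical lines part the 3 tables, which were normalized separately. Cfd, Cfb, Cd55, Cd59a and Serping1 lie higher in all bmEC than in all mpEC points, and Cfd, C3 and Cd55 lie lower in both Lats2 cKO points than in both controls.

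Of 46 other complement genes reported here, 16 could be tested, and 4 of them were higher in bmECs at a limma adjusted p under 0.05, where 13.0% of all tested genes were called higher. Fitted values were higher in bmECs for 12 and lower for 4 of the 16 (median log2 fold change 0.37). The receptors of the C5a fragment were higher in bmECs. C5ar2 was at 40.6, 41.0 and 34.2 FPKM in bmECs and at 16.1, 15.1 and 10.3 FPKM in mpECs (log2 fold change 1.43, limma adjusted p = 0.000675), and its neighbour in function C5ar1 had a mean of 58.9 ± 16.5 against 23.1 ± 5.73 FPKM (SD, n = 3, log2 fold change 1.31, limma adjusted p = 0.0049). C1ra, a protease of the C1 complex, had a log2 fold change of 0.95 from low levels (2.98 ± 0.55 against 1.06 ± 0.35 FPKM, SD, n = 3, limma adjusted p = 0.00579). Cr1l (Crry), the rodent membrane regulator of C3 and C4 convertases, was the most abundant regulator, with 161 ± 15.4 against 114 ± 2.53 FPKM (SD, n = 3, log2 fold change 0.49, limma adjusted p = 0.00602). None of the 7 genes of the terminal pathway reached the minimum level. The most abundant recognition molecule, the ficolin Fcnb, had 60.4 ± 23.5 against 86.6 ± 46.8 FPKM (SD, n = 3, limma adjusted p = 0.432), and the most abundant gene of the receptor list, Cd93, had 138 ± 9.40 against 166 ± 8.58 FPKM (SD, n = 3, limma adjusted p = 0.0537).

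Markers of other cells moved between these groups too. Because Cfd is an adipocyte product, 8 adipocyte genes were summed, giving 376 to 456 FPKM in bmECs and 120 to 146 FPKM in mpECs, and all 3 that could be tested (Pparg, Lpl and Adipoq) were higher in bmECs. Pparg made up most of the sum, and it is also expressed by endothelium. Lep and Retn were at 0 in all 6 libraries, Plin1 at most 0.127 FPKM, Cidec at most 0.171 FPKM and Plin4 at most 0.0738 FPKM. Adipoq was at 16.5 to 22.1 FPKM in bmECs against 4.10 to 8.97 FPKM in mpECs. Of 8 stromal and reticular genes, Adipoq among them, 2 were called higher and 1 lower in bmECs. Osteoblast genes summed to 45.5 to 60.9 FPKM in bmECs and 247 to 976 FPKM in mpECs, with 5 of 7 tested genes called lower in bmECs. All 10 neutrophil genes and 7 of 8 B cell genes had lower fitted values in bmECs, with 0 called. Among 9 macrophage and monocyte genes, 7 were lower and 2 higher, with 1 called each way. Erythroid genes were higher for 7 of 8, with 1 called, and megakaryocyte and platelet genes for 5 of 5, with 0 called. The part of these cells in the complement values was not tested.

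The Lats2 comparison asked what the loss of this kinase, which restrains Yap1 and Taz, does to bone ECs. In the cKO libraries Cfd, C3 and Cd55 were lower and Cd59a was higher. Of the 7 complement genes tested, 3 were lower and 1 was higher at a limma adjusted p under 0.05, where 21.8% of all 12453 tested genes were called, 9.98% lower and 11.8% higher. The median log2 fold change was -1.04 over the 7 genes and -0.00325 over all tested genes. Here too the genes had been chosen with earlier results known. C4b was again not tested, with 2 and 3 reads in the controls and 0 in both cKO libraries. With 2 libraries a group these calls are fragile. Leaving out control replicate 1 or 2 left 0 genes of any kind called by limma, with 2724 and 2879 genes at an unadjusted p under 0.05, and a lone control is then assumed to vary like the cKO pair.

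Cfd was at 20.03 and 18.8 FPKM in the controls and at 1.44 and 4.35 FPKM in the cKO libraries, the latter from 5 and 20 reads. Both cKO libraries were well below both controls, and the log2 fold change was -2.50 ± 0.37 (SE, limma adjusted p = 0.0152). Cfb followed in direction with 2.77 and 2.86 against 1.22 and 1.99 FPKM, without overlap. Its log2 difference of -0.57 did not pass (95% interval from -1.15 to 0.01, limma adjusted p = 0.137). C3 was at 4.53 and 4.31 FPKM in the controls and at 0.927 and 0.703 FPKM in the cKO libraries, from 116 and 132 against 18 and 18 reads. The pairs were tight and apart (log2 fold change -1.58 ± 0.20, SE, limma adjusted p = 0.0115).

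Cfp could not be read as a group value. It was at 8.22 and 8.71 FPKM in the controls, at 10.1 FPKM in cKO replicate 1 and at 0.926 FPKM in cKO replicate 2. The cKO libraries lay on either side of the controls, so the log2 difference of -1.04 had a 95% interval from -3.04 to 0.97 (limma adjusted p = 0.384). Without cKO replicate 2 it was 0.23 (adjusted p = 0.331), and without cKO replicate 1 it was -2.30 and passed (adjusted p = 0.0181). The summed FPKM of 10 neutrophil genes was 710 in cKO replicate 2, 862 in cKO replicate 1 and 1962 and 2915 in the controls. For 10 macrophage and monocyte genes it was 105, 369 and 650 and 750. For 8 erythroid genes it was 276, 1428 and 2526 and 3770. The part of such cells in the Cfp values was not tested.

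The regulators did not move together. Cd55 was at 48.1 and 43.2 FPKM in the controls and at 11.1 and 8.61 FPKM in the cKO libraries, from 204 reads or more. The control mean was 4.63 times the cKO mean, and the log2 fold change was -2.11 ± 0.16 (SE, limma adjusted p = 0.007). Cd59a went the other way, with 19.98 and 20.3 FPKM in the controls and 29.4 and 34.9 FPKM in the cKO libraries. The pairs were apart (log2 fold change 0.64 ± 0.13, SE, limma adjusted p = 0.0296), but the call was lost without cKO replicate 2 (adjusted p = 0.0743), without a filter (0.0534) and without the mean-variance trend (0.0506). Serping1 was at 7.87 and 5.13 FPKM in the controls and at 5.13 and 4.49 FPKM in the cKO libraries. The controls lay further apart than the group means (log2 difference between groups -0.35, 95% interval from -0.90 to 0.21, limma adjusted p = 0.303).

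**Figure D2:**
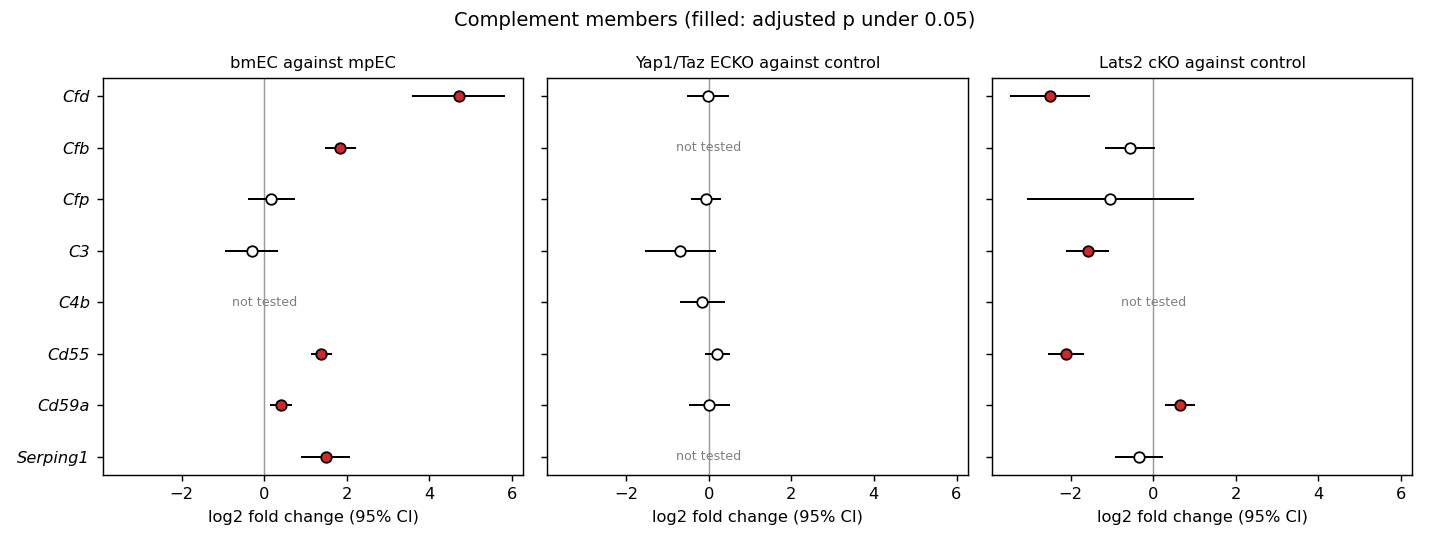
Log2 fold changes with 95% confidence intervals of the 8 complement genes in each comparison, on the log2(FPKM + 1) scale, where positive values are higher in bmECs, in libraries labelled ECKO or in Lats2 cKO libraries. Filled points passed an adjusted p of 0.05, which was the case for 5 genes in the first panel, 0 in the second and 4 in the third.

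Of the 46 other complement genes, 17 were tested in the Lats2 libraries, of which 3 were called higher and 6 lower in cKO at a limma adjusted p under 0.05, where 11.8% of all tested genes were called higher and 9.98% lower. Fitted values were higher for 6 and lower for 11 of the 17, with a median log2 fold change of -0.89. Both C5a receptors were lower. C5ar2 was at 15.97 and 16.2 FPKM in the controls and at 2.38 and 1.47 FPKM in cKO (log2 fold change -2.57, limma adjusted p = 0.007), and C5ar1 was at 24.7 and 23.5 FPKM in the controls and at 5.57 and 1.95 FPKM in cKO (log2 fold change -2.51, limma adjusted p = 0.0152). Susd4, a membrane complement inhibitor, had a log2 fold change of -0.89 (20.2 and 20.7 against 12.3 and 9.11 FPKM, limma adjusted p = 0.0247). Lower values were also called for Colec12, a scavenger collectin and the most abundant of the recognition list (log2 fold change -1.07, limma adjusted p = 0.0324), for Fcnb (-2.58, adjusted p = 0.0218) and for C8g, the only terminal pathway gene tested (-1.06, adjusted p = 0.0231). Clu, which encodes clusterin, an inhibitor of the membrane attack complex, was at 7.31 and 12.9 FPKM in the controls and at 37.9 and 61.5 FPKM in cKO (log2 fold change 2.20, limma adjusted p = 0.0152). Cd93 was higher as well, at 152 and 154 against 81.1 and 87.6 FPKM (log2 fold change 0.86, limma adjusted p = 0.0128). Masp1, a lectin pathway protease, was at 2.50 and 7.08 FPKM in cKO and at 0 and 0.244 FPKM in the controls (log2 fold change 2.25, limma adjusted p = 0.0256). The most abundant regulator, Cr1l, was at 93.8 and 90.9 against 82.0 and 85.3 FPKM (limma adjusted p = 0.394). As for the members, none of these calls was present without either control library.

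**Figure D3:**
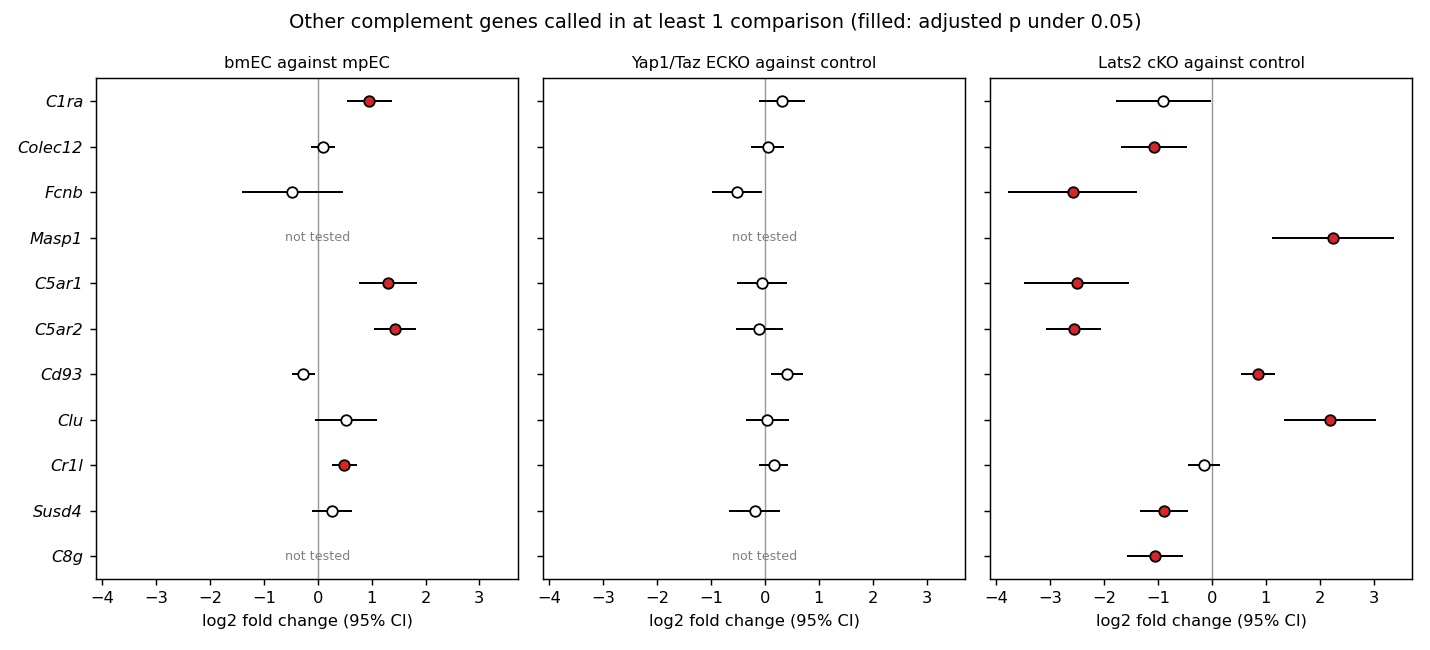
Log2 fold changes with 95% confidence intervals of the reported complement genes outside the 8 that passed an adjusted p of 0.05 in at least 1 comparison (filled points), with the same scale and direction as for the 8 genes. C5ar1 and C5ar2 lie right of 0 for bmECs and left of 0 for Lats2 cKO, and no point is filled in the Yap1/Taz panel.

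Blood cell markers were lower in the Lats2 cKO libraries, where all 10 neutrophil genes had lower fitted values and 7 were called lower, with sums of 710 and 862 FPKM against 1962 and 2915 FPKM in the controls. All 7 B cell genes tested were called lower. Of 8 macrophage and monocyte genes 7 had lower fitted values and 1 a higher one. Of these 2 were called lower, with sums of 105 and 369 FPKM against 650 and 750 FPKM. Fcnb is a product of this myeloid lineage. C1qa, C1qb and C1qc, chains of the C1q made by macrophages, went the other way. Their means were 5.24, 9.05 and 4.51 FPKM in cKO against 1.19, 3.03 and 1.35 FPKM in the controls. None of these chains was called (limma adjusted p = 0.066, 0.11 and 0.0842). The 8 adipocyte genes summed to 80.0 and 112 FPKM in cKO and to 286 and 333 FPKM in the controls, and Plin1, Lep and Retn were at 0 in all 4 libraries. Only 3 of the 8 were tested, all with lower fitted values, and 2 were called lower. This list includes Pparg, which is also expressed by endothelium. The 8 stromal and reticular genes went the other way, with sums of 94.4 and 101 FPKM in cKO against 54.9 and 66.2 FPKM in the controls, and 2 of 6 tested genes were called higher. The endothelial sums were 2175 and 2195 FPKM in cKO and 2191 and 2419 FPKM in the controls, but 1 of the 10 endothelial genes was called higher (Pecam1) and 3 were called lower (Kdr, Tek and Stab2). The part of other cells in the complement differences was not tested.

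**Figure D4:**
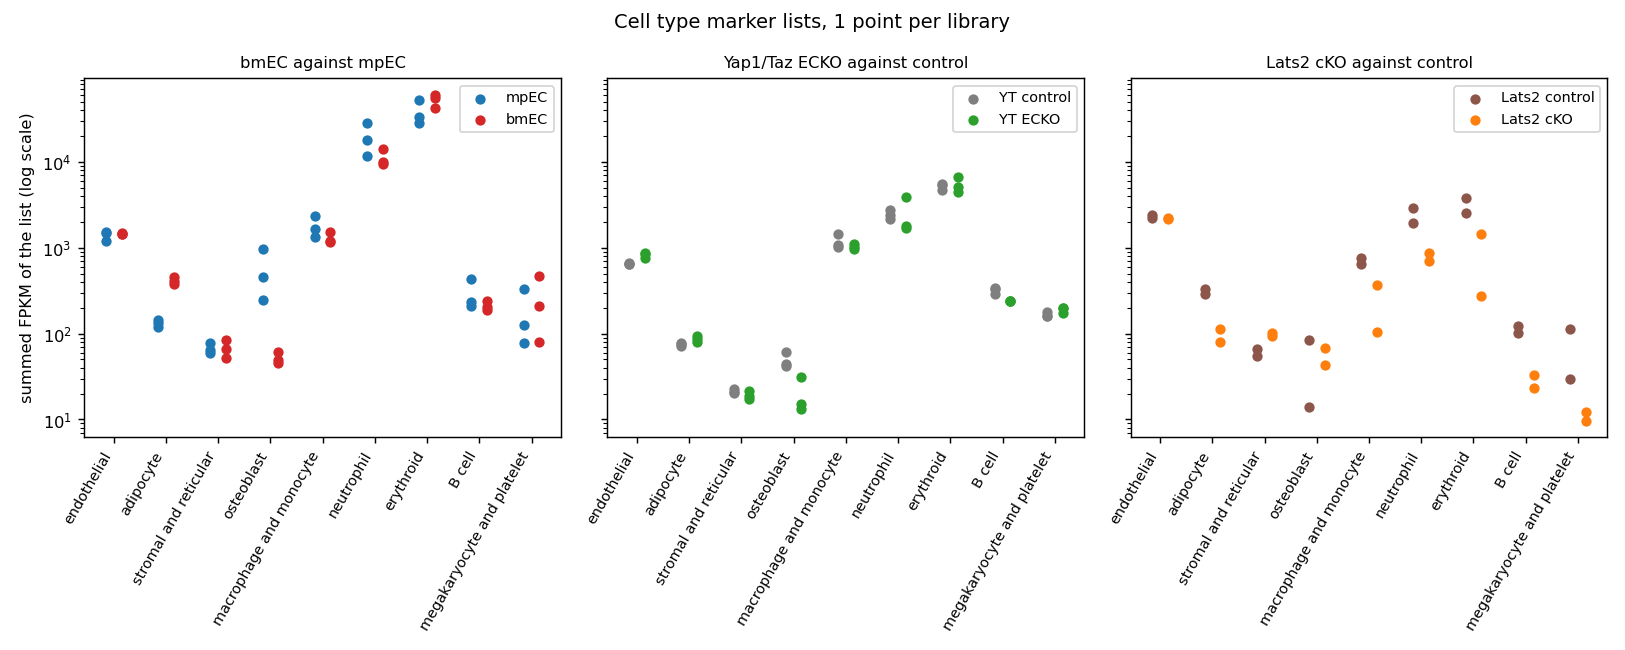
Summed FPKM of 9 cell type marker lists in each library on a log axis, with 1 point per library, coloured by group. Adipocyte sums are higher in bmECs and lower in Lats2 cKO libraries, osteoblast sums are higher in mpECs, and neutrophil, erythroid and B cell sums are lower in both Lats2 cKO libraries than in both controls. The adipocyte list includes Pparg, which is also expressed by endothelium.

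In the Yap1/Taz experiment no complement gene was called. Of the 6 that reached the minimum level, 0 passed a limma adjusted p of 0.05. Over all 11320 tested genes 1.31% were called, 0.883% higher and 0.424% lower. An unadjusted limma p under 0.05 was found for 0 of the 6 and for 2023 of the 11320 genes. With voom on recovered reads 0 of the 6 passed, and 357 genes of the whole table did. The median log2 fold change was -0.04 over the 6 genes and -0.00472 over all genes tested. Cfp was by far the most abundant, at 151, 153 and 224 FPKM in the controls and at 186, 153 and 160 FPKM in the libraries labelled ECKO. The groups overlapped, and the 95% interval of the log2 difference ran from -0.41 to 0.28 (limma adjusted p = 0.873). Control replicate 3, which had the highest Cfp, also had the highest C3 and C4b, and its 10 macrophage and monocyte genes summed to 1441 FPKM against 968 to 1116 FPKM in the other 5 libraries. Between the groups, 10 endothelial genes summed to 649 to 663 FPKM in the controls and 767 to 867 FPKM in the libraries labelled ECKO, all 10 with higher fitted values and 0 called. Osteoblast genes summed to 42.2 to 61.8 against 13.2 to 31.4 FPKM, with 3 of 7 tested called lower, and 8 B cell genes to 288 to 343 against 239 to 242 FPKM, all with lower fitted values and 0 called. The part of these cells in the complement values was not tested.

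C3 was at 4.67, 7.26 and 16.1 FPKM in the controls and at 7.83, 3.53 and 3.83 FPKM in the libraries labelled ECKO, with overlap and a log2 difference of -0.69 (95% interval from -1.52 to 0.14, limma adjusted p = 0.368). Cd55 was at 14.7, 13.7 and 18.4 against 17.3, 18.9 and 18.0 FPKM, and its interval ran from -0.06 to 0.48 (limma adjusted p = 0.398). Cd59a was at 5.70, 2.57 and 3.66 against 4.14, 4.34 and 3.21 FPKM, and its interval ran from -0.46 to 0.50 (limma adjusted p = 0.981). These intervals allow differences of up to about the size seen for Cd59a between bmECs and mpECs in the case of the 2 membrane regulators.

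Cfd was close to the limit of detection in this experiment, at 1.83, 1.26 and 1.05 FPKM in the controls and at 1.16, 0.927 and 2.10 FPKM in the libraries labelled ECKO, from 5 to 11 reads per library (95% interval from -0.49 to 0.48, limma adjusted p = 0.993). C4b, at 0.592 to 1.96 against 0.751 to 1.05 FPKM, was tested only here (limma adjusted p = 0.786). Cfb and Serping1 were under the minimum mean and were not tested. Cfb was at 0.522, 0.309 and 0.686 FPKM in the controls and at 0.152, 0.182 and 0.125 FPKM in the libraries labelled ECKO, from 6 to 12 against 2 to 3 reads, and Serping1 at 0.312 to 1.36 against 0.184 to 0.956 FPKM. The Cfb groups did not overlap, though with counts this low and the exons shared with Gm20547. Of 45 other complement genes in this table, 18 were tested and 0 were called by limma, where 1.31% of all tested genes were called. Their median log2 fold change was -0.09. C1qa, a chain of the C1q recognition molecule made by macrophages, was the most abundant of them at 441 ± 81.7 against 393 ± 16.9 FPKM (SD, n = 3, limma adjusted p = 0.618).

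The first and the Lats2 comparison share no library, so their results for the same genes can be set side by side. Cfd, Cd55 and Cd59a were called in both. Cfd and Cd55 were higher in bmECs than in mpECs and lower in Lats2 cKO than in control, whereas Cd59a was higher in bmECs and also higher in Lats2 cKO. Among all 10471 genes tested in both, 972 were called in both, 36.2% of the calls of the first comparison and 35.9% of those of the second, and 919 of them (94.5%) had opposite directions. Opposite directions were therefore the rule over the table, and Cd59a was 1 of 53 genes called in the same direction in both. Its call was among the least firm in each comparison. C5ar1 and C5ar2 showed the opposite directions as well.

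The levels of the 8 genes were compared over the 16 libraries after the mean of each table was taken off log2(FPKM + 1), against 9468 genes tested in all 3 comparisons. This is a description over libraries that share groups, with no test. Cfd and Cfb had a Pearson correlation of 0.93 and Cfd and Cd55 of 0.82. The genes most like Cd55 were Afap1l2 (0.995), Slc37a2 (0.991) and Gpm6a (0.988), and those most like Cfd were Tnfrsf25 (0.975), Nudt12 (0.970) and Chst2 (0.963). Cfb was most like Tmem176b (0.959), Nr1h3 (0.959) and Lpl (0.948). Cfp had the erythroid gene Hba-a1 (0.930) and the myeloid genes Pld4 (0.907) and Ctss (0.907) nearest. C3 was nearest to Unc93b1 (0.900), Tmod1 (0.893) and Tnfaip8l2 (0.893), Serping1 to Kdm5a (0.927), Ado (0.912) and 2210016F16Rik (0.903), and Cd59a to Smim7 (0.911), Cyb561d2 (0.897) and Rps3 (0.888). C4b, low in most libraries, was nearest to Acp2 (0.839), Rbm48 (0.833) and Kif3b (0.827).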

How the data were processed

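Bone ECs were sorted by FACS, and stranded total RNA libraries were sequenced as paired-end reads. According to the methods, the authors used TopHat for alignment to GRCm38, HTSeq 0.6.1 for counts per gene and DESeq2 for tests of those counts. The authors deposited FPKM values, which are the unit used here. The tool that made FPKM and the strand setting are not given in the sources used here. Within each table, log2(FPKM + 1) was tested, for genes averaging 1 FPKM or more, between labelled groups with limma 3.58.1 (R 4.3.3, empirical Bayes with a mean-variance trend), two-sided, with Benjamini-Hochberg adjustment over all genes tested and a call at an adjusted p under 0.05. A count model could not be the main test because the values were not counts. Reads were recovered from FPKM and GENCODE M21 exon lengths. Of values up to 20 reads, 62.7% to 70.3% per library came out whole with a tolerance of 0.02 reads, against 4.0% by chance. The 8 members and all gene lists were chosen with earlier results of these data known. In the complement lists 1 gene is not reported here, and it was left out of their counts and medians. Named genes were the members, the targeted genes, complement genes called in a comparison or most abundant in their list, and the 3 genes most like each member. Alternatives were a pseudocount of 0.1, no filter or one at 5 FPKM, quantile normalization, rescaling without the 10 most abundant genes, no trend, a replicate block, leaving out each library, voom on recovered reads, and the thresholds of the methods. The procedure was tested on simulated data, with a spread that was set and not taken from these libraries. Simulated log2 changes of 1 were called for 59% of 100 genes for bmECs against mpECs, 84% for Yap1/Taz and 19% for Lats2. For changes of 2 the shares were 98%, 100% and 93%. Unchanged genes called numbered 42, 15 and 19, among 11197, 11257 and 12052 genes. Tables and plots were made in Python 3.11.15 (matplotlib 3.10.9, numpy 2.4.6, pandas 2.3.3).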

Additional observations from a re-analysis of the deposited data

How the results depend on the processing

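Of 258 refits of single complement genes under alternatives, 230 kept their direction and side of the threshold, 17 lost a call, 1 gained one and 10 changed sign, all 10 in differences that had not passed. The number of complement genes called ranged from 4 to 5 for bmECs against mpECs and stayed at 0 for Yap1/Taz over the same alternatives. For Lats2 it was 0 to 5 when a library was left out, 3 or 4 in the other fits, and 1 (Cd55) under the stricter thresholds of the methods, which ask for an adjusted p under 0.01 and a log2 fold change beyond 0.5 either way. There 1335, 1 and 257 genes were called for bmECs against mpECs, Yap1/Taz and Lats2, in place of 2682, 148 and 2711. Without a filter the Yap1/Taz and Lats2 counts were 1 and 1389. The Yap1/Taz count was 17 without the trend and 357 with voom. Leaving out 1 library gave 1817 to 2357, 1 to 293 and 0 to 2701 called genes. The cause of these shifts was not tested.

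Among the sign changes, Cfp in bmECs against mpECs was at -0.073 with voom. In the Yap1/Taz libraries, leaving out 1 library moved Cfd between -0.21 and 0.13, Cfp between -0.16 and 0.12 and Cd59a between -0.20 and 0.26, and in the Lats2 libraries Cfp between -2.30 and 0.23. Samples with the same number share only that number. The correlations of their deviations were 0.307, 0.0876 and 0.102 for mpECs and bmECs, -0.175, -0.123 and -0.155 for Yap1/Taz and 0.0651 for Lats2. A replicate block gave 3072, 45 and 2655 called genes and left the number of complement genes called at 5, 0 and 4. Few reads limit C4b in the mpEC, bmEC and Lats2 libraries, with 7 or fewer each, and Cfd and Cfb in the Yap1/Taz libraries, with 12 or fewer each.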
